A study of Drosophila melanogaster with 23 samples.

Results

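The genes described here are 8 Drosophila melanogaster genes whose products separate chromosomes at anaphase or act in the egg when it is activated: cort, fzy, fzr, pim, thr, png, plu and gnu. They were chosen by name and were found by matching each FlyBase symbol to its gene identifier in the count tables, and all 8 were present among the 17023 genes counted in each of 23 ovary libraries. The anaphase-promoting complex (APC/C) is a ubiquitin ligase that needs an activator of the Cdc20 and Cdh1 family to bind its targets. fzy encodes Cdc20, fzr encodes Cdh1, and cort encodes an activator of the same family that works in female meiosis. Among the APC/C targets is securin, encoded by pim, whose destruction frees separase to cut cohesin, and thr encodes a subunit that the Drosophila separase requires. In the late oocyte and egg, the serine/threonine kinase encoded by png works with the products of plu and gnu as its activating partners and controls the translation of stored maternal mRNAs, that of cyclin B among them.

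The study asked how MSL3 and genes linked to it act on the meiotic programme of the female germline, and profiled poly(A)-selected RNA from whole dissected ovaries of flies aged 1 to 5 days. The control called hsbam carried bam RNAi driven by nosGAL4, a germline driver under the nanos promoter, together with an hsbam transgene; 4 libraries of RNA from ovaries bore this label, hsbam 1 and 2 serving as the control of MSL3 RNAi and NC2b RNAi and hsbam 3 and 4 as the control of Set2 RNAi. Each of these knockdowns had 2 libraries, and its flies carried UAS-Dcr2 with nosGAL4. The Dcr2 transgene, the absence of bam RNAi, the absence of the hsbam transgene and the knockdown thus came together in every such contrast with hsbam. A second experiment set 2 bam RNAi libraries, driven by nosGAL4, against 2 that also carried the S19b mutation (RpS19b) in both parents' listed stocks. The third loaded hsbam ovaries and ovaries with S19b RNAi (UAS-Dcr2 and nosGAL4) onto polysome gradients and kept total and polysome RNA, with 2 libraries of each kind. The last library came from whole ovaries of UAS-Dcr2 and nosGAL4 flies with no knockdown. Nothing in the labels ties the libraries of a group to different batches of flies, and the p-values therefore rest on a spread between libraries that may be technical.

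Library totals ran from 2780781 counts in hsbam polysome 2 to 39149303 in hsbam 3, and values below are CPM (counts divided by these totals and scaled to 1e+06) unless a scale is named. Several libraries stood apart. hsbam 1 held bam, the gene the hsbam transgene supplies, at 4.61 CPM, against 71.9, 173 and 77.0 in hsbam 2, 3 and 4 and 2.09 and 6.17 in the bam RNAi libraries. The summed level of 12 heat shock genes was 975 and 1599 CPM in hsbam 1 and 2 but 18171 and 31039 in hsbam 3 and 4 and 15447 to 42519.7 in the hsbam gradient libraries, with Hsp22 at 0 in every library. The gradient libraries split by number, hsbam total and polysome 2 and S19b RNAi total and polysome 1 having high muscle markers (15669 to 21669.8 CPM summed over 6 genes, against 4467 to 7204 in the other 4). The gene msl-3 was not lower under the MSL3 RNAi label, with 65.6 and 39.1 CPM beside 32.0 and 38.5 in hsbam 1 and 2 (log2 fold change 0.65 ± 0.28, SE; edgeR adjusted p = 0.142). NC2beta was lower in the NC2b RNAi libraries than in hsbam 1 and 2 (4.69 and 5.12 CPM against 12.2 and 16.0, edgeR adjusted p = 0.0383). It was also low where it was not targeted, at 7.78 and 6.87 CPM under the MSL3 RNAi label and 6.25 in whole ovaries. Under Set2 RNAi it was at 7.10 and 11.3 CPM. MSL3 RNAi against NC2b RNAi gave 0.56 ± 0.33 for NC2beta (SE, edgeR adjusted p = 0.517). Set2 was at 62.2 and 54.3 CPM under Set2 RNAi against 266 and 37.2 in hsbam 3 and 4, which lie on both sides of it. For hsbam 1 and MSL3 RNAi the gene named in the label thus does not bear the label out, and every direction below that uses them holds for the libraries as labelled; whether labels were exchanged was not tested. Without hsbam 1, 6 of the 8 genes passed as higher with the MSL3 RNAi label and 5 under NC2b RNAi, against 7 in each with it. Germline markers were present throughout, the sum over 6 of them (aub, tej, spn-E, piwi, AGO3 and vls) ranging from 507 to 3401 CPM.

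All 8 genes are protein-coding, and their places are on dm6. cort lies on chromosome 2L at 6674682 to 6676635 on the minus strand, and 99 of its exon bases (6.0%) are also covered on the opposite strand by exons of cup and CG34310. fzy lies on 2L at 16310956 to 16313097 on the plus strand and shares 62 exon bases (3.1%) with cact on the opposite strand. pim lies on 2L at 10362989 to 10364092, plus strand, and fzr on X at 4667290 to 4679537, minus strand. thr lies on 2R at 17861273 to 17865963, minus strand, sharing 263 exon bases (5.7%) with CG14490 on the opposite strand, a gene that never exceeded 0.388 CPM. png is a gene of 1 exon on X at 1356488 to 1357601, plu lies on 2R at 20262958 to 20263684, and gnu lies on 3L at 14802380 to 14803360, all on the minus strand. The strand setting of the counting is not known from the sources. Reads over the shared bases may therefore be added to, or left out of, the counts of cort, fzy and thr. cup was at 0 CPM in every library, but it spans the same coordinates as CG34310 (6663664 to 6674780), which reached 14.6 CPM. Whether reads lying in both genes were left out of the counts was not tested. The 0 therefore does not show that cup was silent.

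The 8 transcripts differed widely in level. Per kilobase of exon, the median over 23 libraries was 142 CPM for gnu, 70.6 for pim, 56.3 for fzy, 29.5 for plu, 26.2 for fzr, 20.0 for thr, 11.4 for cort and 9.26 for png. In the single whole-ovary library, which the study used to place the other samples in development, the order per kilobase was gnu at 225 CPM, fzr at 35.3, plu at 31.0, pim at 29.1, fzy at 20.7, png at 15.4, cort at 11.4 and thr at 7.41. gnu stood at the top of both orders, and png, the kinase that gnu and plu activate, was below both partners. fzr ran from 48.9 to 144 CPM over the 23 libraries. As a ratio of the highest to the lowest library this was the narrowest of the 8, and 7 of the 8 had their lowest value in hsbam polysome 2, where png rested on 2 counts, plu on 3 and thr on 7. cort had 0 counts there, which allows up to 1.08 CPM (3 counts of the total, counting error only). The exception was pim, lowest in hsbam total 2 at 20.4 CPM.

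**Figure D1:**
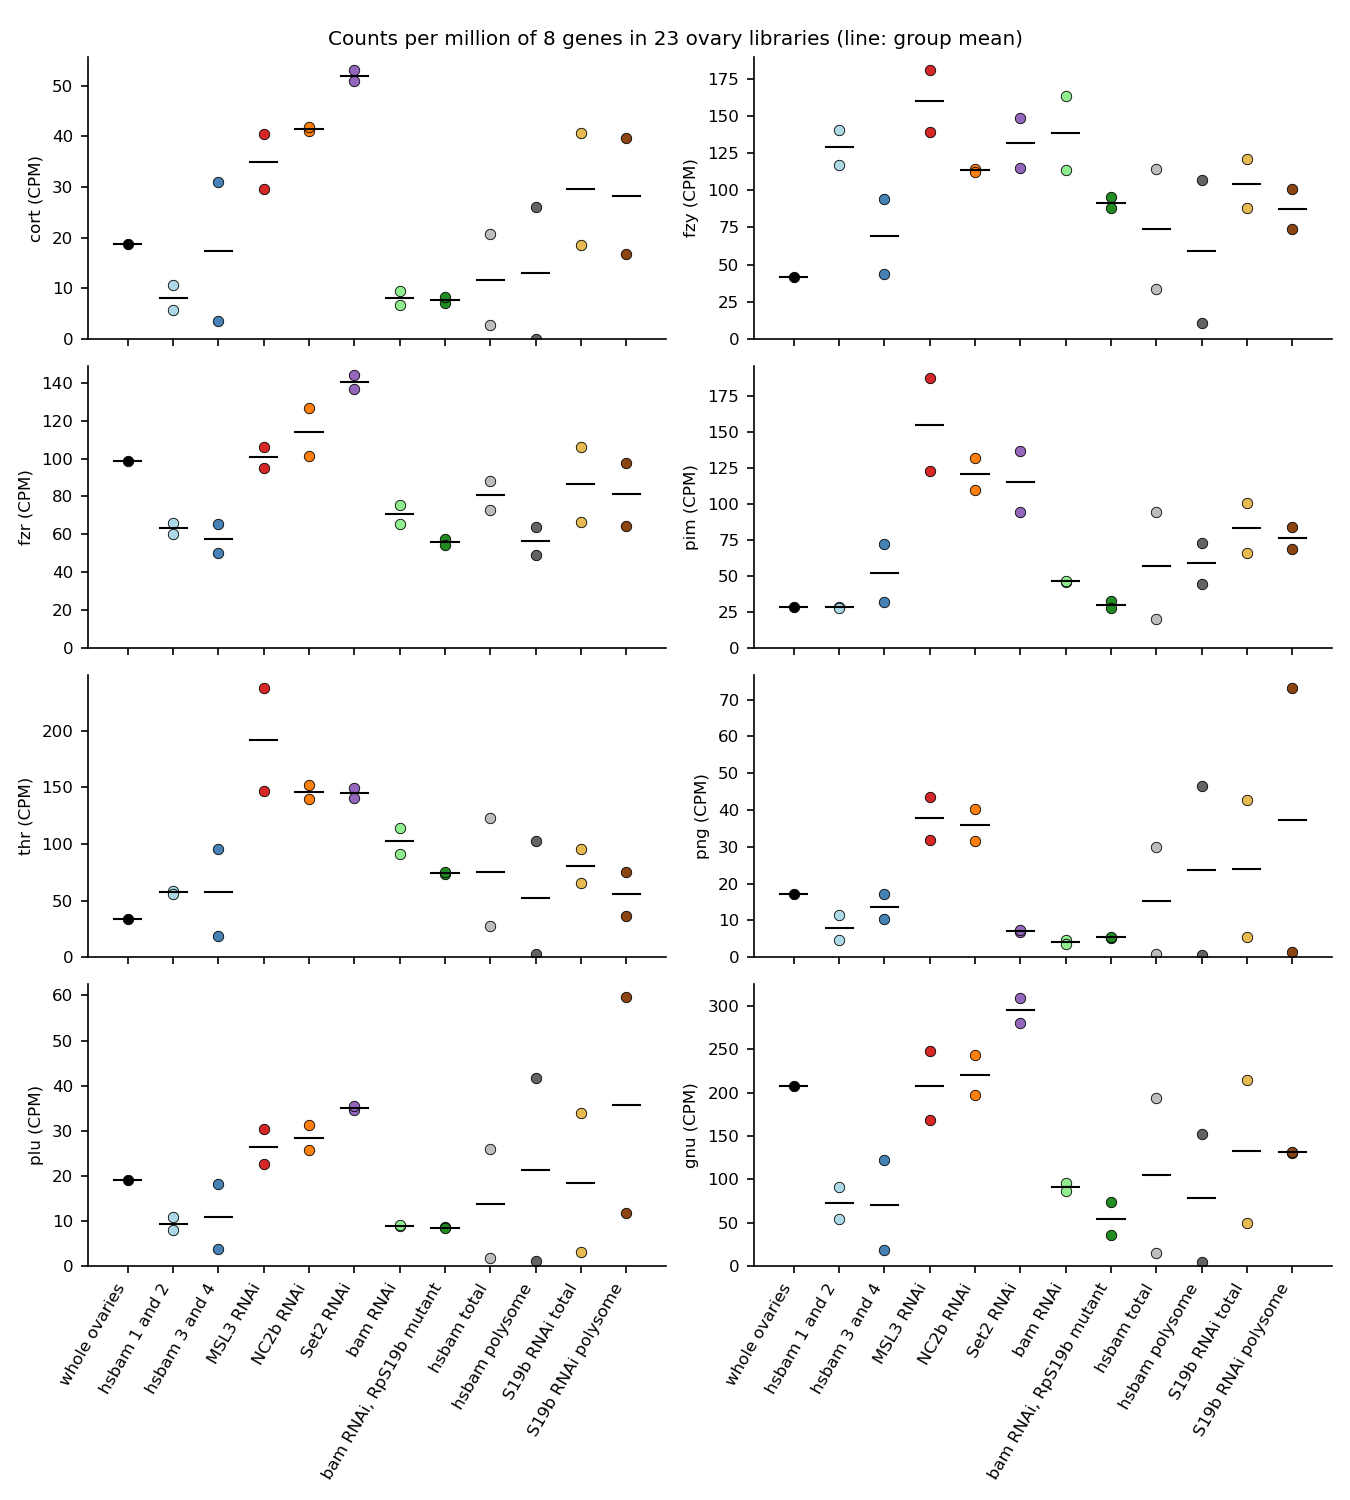
CPM (linear axes from 0) of the 8 genes in all 23 libraries, 1 point per library, with a black line at each group mean. The Set2, MSL3 and NC2b RNAi points lie above the bam RNAi points for cort, fzr, pim, thr, plu and gnu, while the png points of Set2 RNAi (6.84 and 7.33) lie below those of MSL3 and NC2b RNAi (31.6 to 43.6).

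The comparison of MSL3 RNAi with hsbam 1 and 2 asked which genes change when MSL3 is depleted in the germline. Here 7 of the 8 genes were higher in the libraries labelled MSL3 RNAi and none was lower (edgeR quasi-likelihood test, Benjamini-Hochberg adjusted p under 0.05 over 10180 genes), where 25.3% of all genes tested passed, 16.8% higher and 8.48% lower. The median log2 fold change of the 8 was 1.70, beside -0.09 over all genes tested.

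Of the activators, cort stood at 10.7 and 5.71 CPM in hsbam 1 and 2 and at 40.4 and 29.6 with the MSL3 RNAi label. The groups did not overlap, though hsbam 3, at 31.0 CPM, lay between the MSL3 RNAi libraries. fzr was at 106 and 94.9 CPM against 60.4 and 65.9, the smallest of the changes that passed (log2 fold change 0.75 ± 0.18, SE; adjusted p = 0.0329). fzy, the general mitotic activator, was at 181 and 139 CPM against 117 and 140.5. Its groups overlapped, and its difference did not pass (0.39 ± 0.19; adjusted p = 0.179, 95% interval -0.07 to 0.85).

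The securin gene pim and thr, the gene for the subunit that separase requires, both rose. pim was at 188 and 123 CPM against 28.5 and 28.2, and thr was at 237 and 146 against 58.3 and 56.0. For both genes the lower knockdown library was over the higher hsbam library by a wide margin, and the hsbam libraries were close to each other. The log2 fold change of thr was 1.82 ± 0.25 (adjusted p = 0.00997).

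All 3 genes of the egg activation kinase rose as well. png was at 43.6 and 31.8 CPM against 11.4 and 4.56 (2.29 ± 0.47; adjusted p = 0.0208). plu was at 30.3 and 22.7 CPM against 8.04 and 10.9 (1.57 ± 0.28; adjusted p = 0.015). gnu was at 247 and 168 CPM against 54.7 and 91.2 (1.59 ± 0.32; adjusted p = 0.0193). No knockdown library of these 3 genes reached down to an hsbam 1 or 2 value, and the share of all genes like this was not counted.

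NC2b encodes the beta subunit of negative cofactor 2, a regulator of TBP-dependent transcription, and its knockdown was set against the same hsbam 1 and 2 libraries. The same 7 of 8 genes were higher and none was lower, where 18.6% of all genes passed, 14.1% higher and 4.53% lower, with a median of 1.70 beside -0.09. The knockdowns share their controls, so these counts are not independent of those for MSL3. fzy was the gene that did not pass, at 114 and 112 CPM against 117 and 140.5 (-0.08 ± 0.19; adjusted p = 0.753).

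cort was at 41.1 and 41.7 CPM under NC2b RNAi, close to each other and above all 4 hsbam libraries. fzr was at 101 and 127 CPM (0.95 ± 0.18; adjusted p = 0.0245). The securin gene pim was at 109.7 and 133 CPM (2.19 ± 0.25; adjusted p = 0.0166), and thr was at 139 and 152 CPM (1.45 ± 0.25; adjusted p = 0.0204). Both pim and thr lay above every hsbam library. In the kinase group png was at 40.2 and 31.6 CPM (2.25 ± 0.47; adjusted p = 0.0294), plu at 25.7 and 31.3 (1.70 ± 0.28; adjusted p = 0.0188) and gnu at 197 and 244 (1.70 ± 0.32; adjusted p = 0.0235). The values of these 3 genes lay above all 4 hsbam libraries.

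Set directly against each other, the libraries labelled MSL3 RNAi and the NC2b RNAi libraries gave no call for any of the 8 genes, nor for any of the 10180 genes tested (0%) by edgeR, while 1 of the 8 had an unadjusted p under 0.05 and DESeq2 and limma-voom called 0 of the 8. Over all genes, 1178 had an unadjusted p under 0.05, DESeq2 called 233 and limma-voom 0. The gene of the 8 was fzy, higher in MSL3 RNAi by 0.47 ± 0.19 on the log2 scale (adjusted p = 0.424). The 95% intervals of the other differences reached from -0.27, with bounds of -1.11 and 0.58, for cort to 0.37, with bounds of -0.23 and 0.97, for thr, and png had the widest, from -1.06 to 1.15.

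Against all 4 hsbam libraries, both libraries labelled MSL3 RNAi were above every hsbam value for 6 of the 8 genes and below for none (18.9% of genes above, 18.1% below), the exceptions being cort and fzy. Both NC2b RNAi libraries were above for 7 and below for none (20.2% of genes above, 23% below), fzy being the exception. The test did not hold with those controls: no gene of the 8 passed in either knockdown with hsbam 3 and 4 as the control or with all 4, where hsbam 3 and 4 differed from each other by as much as cort at 31.0 and 3.59 CPM. Leaving out the first library labelled MSL3 RNAi left 2 calls for that knockdown (pim and thr), leaving out either NC2b library left 4 and 3, and for NC2b RNAi the count was 0 without either of its own libraries and 3 without hsbam 2.

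Most markers of late oogenesis were also higher under both knockdown labels. The sum of 6 mRNAs of the growing oocyte (osk, bcd, grk, exu, tor and gcl) was 269 and 155 CPM in hsbam 1 and 2, 2803 and 1659.8 in the libraries labelled MSL3 RNAi, and 2489.7 and 2191 under NC2b RNAi, and 5 of the 6 passed as higher in each knockdown. It was 1502 CPM in hsbam 3 and 91.2 in hsbam 4, the libraries with the high and the low member values of that pair. In the whole-ovary library it was 2302 CPM. There fzy (41.4 CPM) and thr (33.9) lay below hsbam 1 and 2, and pim (28.5) was at their level. cort (18.8 CPM), fzr (98.5), png (17.2), plu (19.1) and gnu (208) lay above them. The sum of 10 eggshell genes of follicle cells was 3143 and 9792 CPM in hsbam 1 and 2, 13739 and 10291 with the MSL3 label and 21816 and 19207 under NC2b RNAi. Of these 10, 7 were called higher in each knockdown (median log2 fold changes 4.54 and 5.40), and the sum over 6 muscle genes was 23222 and 6804 CPM in hsbam 1 and 2, 3615 and 10622 in the libraries labelled MSL3 RNAi and 3144 and 3774 under NC2b RNAi. Germline markers summed to 1251 and 1879 CPM in hsbam 1 and 2, 1005 and 664 in the libraries labelled MSL3 RNAi and 925 and 983 under NC2b RNAi, with 1 of 6 (piwi) and 0 called lower. Of 9 escort, cap and terminal filament markers 3 and 2 were called lower (median log2 fold changes -2.45 and -2.11). The part of these markers in the changes of the 8 genes was not tested. In such whole-ovary RNA, more cells of a type and more RNA in each cell cannot be told apart.

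**Figure D2:**
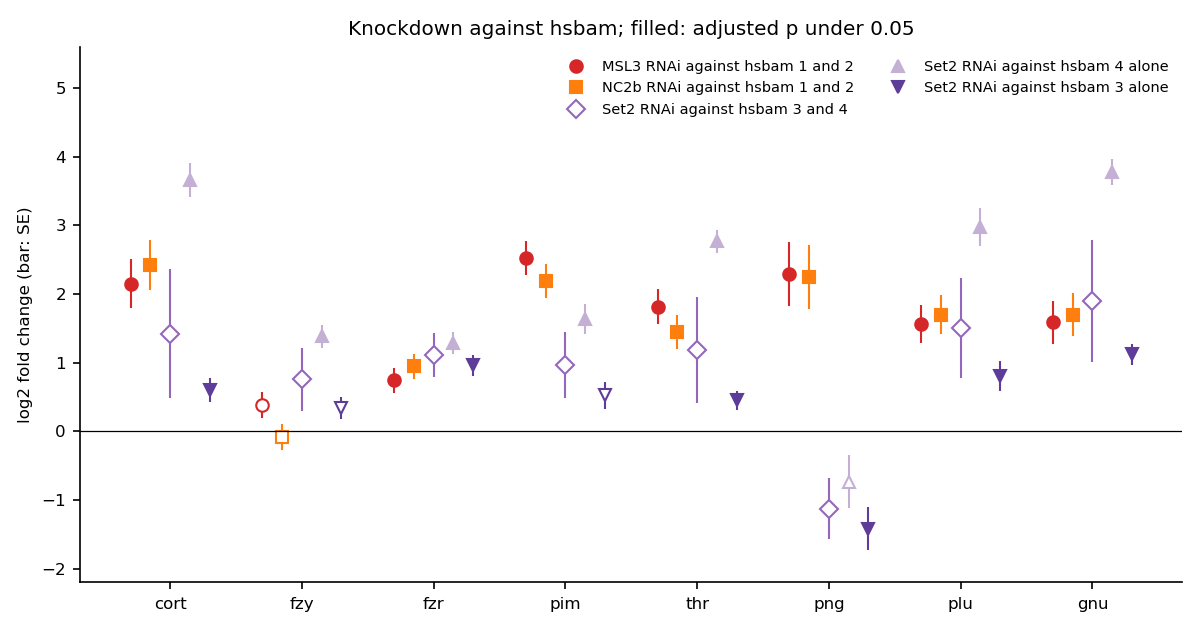
Log2 fold change (y axis, bars are SE) of the 8 genes for NC2b RNAi and the libraries labelled MSL3 RNAi against hsbam 1 and 2, and for Set2 RNAi against hsbam 3 and 4 together and against each alone. Filled points passed an adjusted p of 0.05. fzy is open for MSL3 and NC2b RNAi, png is the gene below 0 for Set2 RNAi, and the Set2 values of cort range from 0.60 to 3.66 with the control library used.

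Genes that act with these 8 were read from 5 lists covering 49 genes in the files, and each list held genes that were higher in both knockdowns. Each count below stands beside 16.8% of all genes higher in MSL3 RNAi and 14.1% in NC2b RNAi. Of 10 genes for APC/C subunits and its E2 enzyme, 4 were higher and none lower in the libraries labelled MSL3 RNAi, and 3 under NC2b RNAi. They were APC7 (log2 fold change 3.13 in MSL3 RNAi and 2.59 in NC2b RNAi), the E2 gene vih (1.14 and 1.11), the scaffold gene shtd (1.00 and 0.84) and, for MSL3 RNAi alone, Cdc27 (0.76, with 0.68 and an adjusted p of 0.0586 in NC2b RNAi). The subunit genes mr (-0.34 and -0.42) and ida (-0.09 and 0.13) did not pass in either.

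Of 10 APC/C inhibitors and spindle checkpoint genes, 7 were higher in MSL3 RNAi and 6 in NC2b RNAi. The largest change in MSL3 RNAi was that of Rca1, an inhibitor of the complex (2.04 and 1.80). Next were the checkpoint genes Zwilch (1.90 and 1.48), Bub1 (1.34 and 0.98) and Mps1, a kinase gene (1.31 and 1.06). Bub3 (-0.10 and -0.21) and Mad1 (0.17 and 0.19) did not pass. Of 10 separase and cohesin genes, 5 were higher in each: wapl, which releases cohesin (2.30 and 2.00), the loader gene Nipped-B (1.46 and 1.62), mei-S332, the shugoshin that protects centromeric cohesin (1.33 and 1.16), eco (1.07 and 0.93) and pds5 (1.02 and 0.81). The cohesin core genes SMC1 (0.35 and 0.23), SMC3 (0.41 and 0.33) and vtd (0.41 and 0.42) and the separase gene Sse (0.65 and 0.47), partner of thr, did not pass.

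Of 6 genes for APC/C targets, 5 were higher in each knockdown. These were mtrm, a meiotic Polo inhibitor (4.06 and 3.99), the cyclins CycB (3.07 and 3.09), CycB3 (2.72 and 2.25) and CycA (2.67 and 2.80), and geminin (0.95 and 0.83), and the list's median was 2.70 in MSL3 RNAi and 2.53 in NC2b RNAi. aurA (0.74 and 0.59) did not pass. Of 13 genes of oocyte maturation and egg activation, 8 and 7 were higher. They included the poly(A) polymerase gene wisp (4.11 and 3.89), the translational repressor smg (3.83 and 3.63), the Greatwall kinase gene gwl (2.94 and 3.03), the meiotic phosphatase gene twe (2.60 and 2.33) and Cks30A (1.23 and 1.36). endos, the Greatwall substrate, was at 0.04 and -0.02. No gene of the 5 lists was lower in either knockdown. Over the 49 genes this came to 29 calls in MSL3 RNAi and 26 in NC2b RNAi, and none was left in either with hsbam 3 and 4 as the control. Leaving out 1 library gave 13 (without the first library labelled MSL3 RNAi) to 32 for MSL3 RNAi, and 0 (without either NC2b RNAi library) to 28 for NC2b RNAi; without hsbam 1 it was 22 and 16, and without hsbam 2 it was 17 and 11. Without either NC2b RNAi library the MSL3 count was 16.

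**Figure D3:**
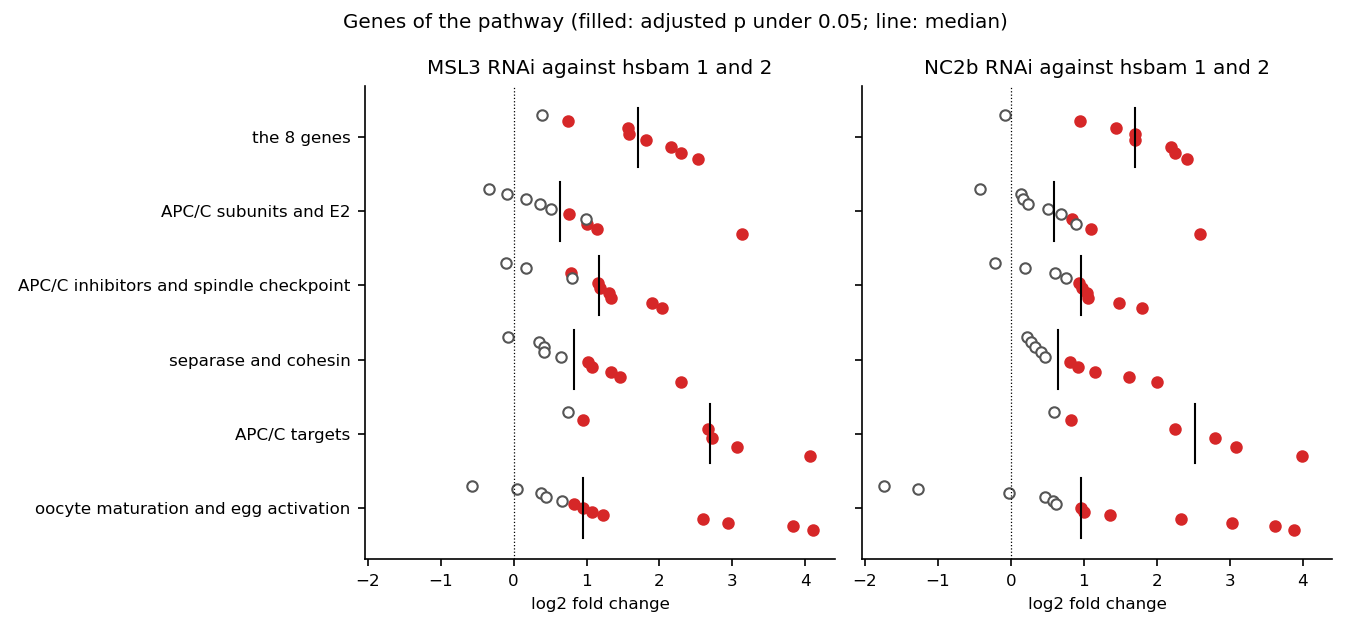
Log2 fold change (x axis) of the 8 genes and of each gene of 5 pathway lists (rows) for the libraries labelled MSL3 RNAi (left) and for NC2b RNAi (right) against hsbam 1 and 2. Red points passed an adjusted p of 0.05, open points did not, and black lines are list medians: 1.70 for the 8 genes in both panels and 2.70 and 2.53 for the APC/C targets.

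Set2 encodes the histone H3 lysine 36 methyltransferase, and its knockdown was set against hsbam 3 and 4. None of the 8 genes passed, and none of the 9313 genes tested did (0%); 1 of the 8, fzr, had an unadjusted p under 0.05, and DESeq2 and limma-voom also called 0 of the 8. Over all genes, 1972 had an unadjusted p under 0.05, DESeq2 called 1352 and limma-voom 0. For cort, thr, plu and gnu the Set2 RNAi libraries were close to each other and the hsbam libraries far apart, while for pim and fzy both pairs were spread. cort was at 50.9 and 53.0 CPM, its highest values in the series, against 31.0 and 3.59 (1.42 ± 0.94; adjusted p = 0.457). fzr was at 144 and 137 CPM, also its highest, against 65.2 and 50.4 (1.11 ± 0.32; adjusted p = 0.149). gnu was at 279.7 and 309 CPM, likewise the highest of 23, against 122 and 18.7 (1.90 ± 0.89; adjusted p = 0.318). For these 3 genes no hsbam library overlapped the knockdown.

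fzy was at 115 and 149 CPM against 94.3 and 44.0 (0.76 ± 0.46). pim was at 94.7 and 137 CPM against 72.6 and 32.3 (0.97 ± 0.48). thr was at 141 and 149 CPM against 95.7 and 18.6 (1.18 ± 0.77), and plu at 34.7 and 35.5 against 18.2 and 3.88 (1.50 ± 0.73). Each of these also lay above both controls, and the share of all genes that did so was not counted. Both Set2 RNAi libraries were above all 4 hsbam libraries for 6 of the 8 genes and below for none (27.1% of genes above, 21.4% below), fzy and png being the exceptions. The 8 genes had a median of 1.15, beside 0.04 over all genes.

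The result depended on which hsbam library was the control. Without hsbam 3, against hsbam 4 alone, 7 of the 8 genes passed as higher (31.1% of genes higher, 26.7% lower), among them gnu (3.78), cort (3.66), plu (2.98) and thr (2.77). Without hsbam 4, 5 of the 8 were higher (10.8% of genes higher), with smaller fold changes such as 1.12 for gnu, 0.60 for cort and 0.46 for thr, and png was lower (14.1% of genes lower). Against hsbam 1 and 2, 6 of the 8 passed as higher (18.6% of genes higher, 18% lower), all but fzy (-0.03) and png (-0.26). In the fits with a lone hsbam library, that library is assumed to vary like the knockdown libraries. The late-oocyte sum was 3234 and 2753 CPM under Set2 RNAi against 1502 and 91.2, and muscle markers were 1290.4 and 1205 CPM against 14201 and 29166. Heat shock genes were at 1744 and 1996 CPM against 18171 and 31039. The part of these in the fold changes was not tested.

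png was the gene that set Set2 RNAi apart. Its level was 6.84 and 7.33 CPM in the Set2 RNAi libraries, where its partners gnu and plu were at 279.7 and 309 and at 34.7 and 35.5 CPM. Under the MSL3 and NC2b RNAi labels the 4 libraries had png at 31.6 to 43.6 CPM, with gnu at 168 to 247 and plu at 22.7 to 31.3. The groups did not overlap for png, the Set2 RNAi libraries having the lower values, and for gnu and plu the Set2 RNAi libraries had the higher ones. The same held for cort (50.9 and 53.0 CPM against 29.6 to 41.7) and fzr (144 and 137 against 94.9 to 127), also higher in Set2 RNAi. The share of all genes without overlap was not counted. Against hsbam 3 and 4, at 17.2 and 10.3 CPM, png was lower in both Set2 RNAi libraries without passing (-1.12 ± 0.44; adjusted p = 0.238), and it passed against hsbam 3 alone (-1.42; adjusted p = 0.0132) but not against hsbam 4 alone (-0.74; adjusted p = 0.142).

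A direct contrast of Set2 RNAi with the mean of MSL3 and NC2b RNAi, chosen after these values were seen and fitted over 14 libraries, called png lower by edgeR (log2 fold change -2.46 ± 0.41; adjusted p = 0.0298, with 0.695% of 10649 genes called, 0.254% lower and 0.441% higher). It was the 1 gene of the 8 to pass. fzr (0.30 ± 0.20; adjusted p = 0.462) and pim (-0.34 ± 0.31; adjusted p = 0.631) did not. Taking each knockdown against its own hsbam pair, the difference between the effects was also called for png (-3.36 ± 0.58; adjusted p = 0.0339, with 0.676% of genes called, 0.244% lower and 0.432% higher), and the next in size, pim, did not pass (-1.34 ± 0.48; adjusted p = 0.205). The sign and size of png held when any 1 of the 14 libraries was left out (-2.67 to -2.38 for the direct contrast and -4.16 to -2.85 for the difference of effects), but the call held in 6 and in 5 of those 14 fits. In both contrasts it was lost without either library of NC2b RNAi, Set2 RNAi, bam RNAi or bam RNAi with the RpS19b mutation, and in the difference of effects also without hsbam 2, with adjusted p from 0.0522 to 0.395. Both knockdown sets had high late-oocyte sums (2753 and 3234 CPM in Set2 RNAi, 1659.8 to 2803 in the others). Other marker sums differed more: muscle was at 1290 and 1205 CPM in Set2 RNAi against 3144 to 10622. Germline markers were at 1112 and 1171 CPM against 664 to 1005, and eggshell genes at 12623 and 7900 against 10291 to 21816. The part of these markers in the png difference was not tested.

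**Figure D4:**
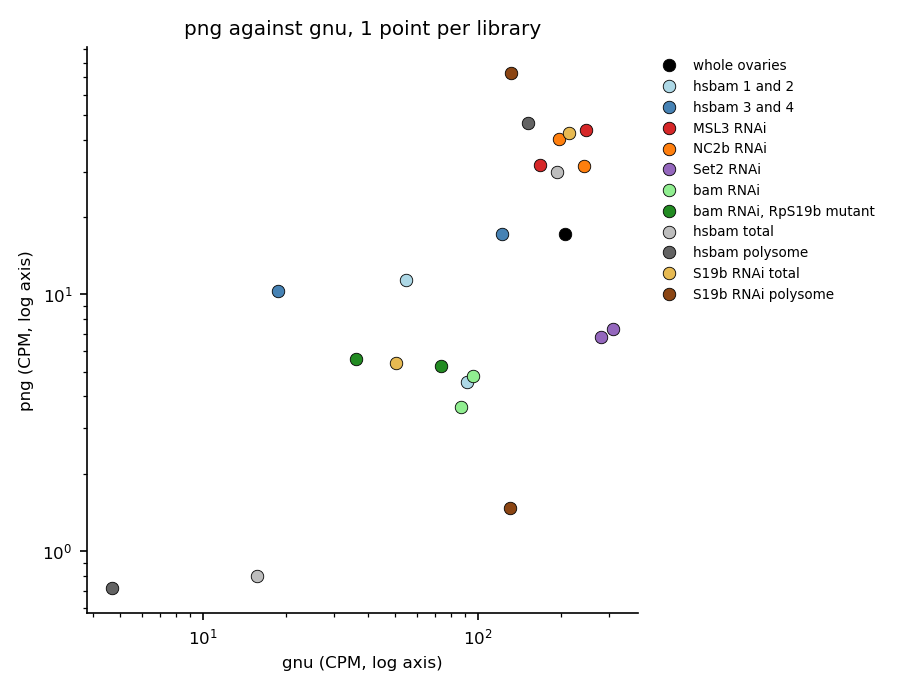
png against gnu in CPM (log axes), 1 point per library, coloured by group. The Set2 RNAi points have the highest gnu values (279.7 and 309) with png at 6.84 and 7.33, and S19b RNAi polysome 1 lies at 131 and 1.47, below the other libraries of similar gnu level.

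In bam RNAi ovaries, whose germ cells cannot leave the early stages without the differentiation factor Bam, png was at 4.81 and 3.63 CPM, against 11.4, 4.56, 17.2 and 10.3 in hsbam 1 to 4. The groups overlapped, hsbam 2 lying between the bam RNAi libraries. This contrast crosses experiments, so the experiment and the genotype cannot be told apart. png was called lower (-1.39 ± 0.40; adjusted p = 0.0487), the 1 gene of the 8 that passed, where 10.3% of genes passed, 5.35% lower and 4.94% higher. The call was lost without hsbam 1, either library of NC2b or Set2 RNAi, or any library of the bam RNAi experiment, over which range the fold change was -1.66 to -0.999. Leaving out hsbam 3 or hsbam 4 raised the count of the 8. Calls over all genes also changed from fit to fit when a library was left out, so the rise is not particular to these genes. thr was at 91.4 and 114 CPM against 58.3, 56.0, 95.7 and 18.6 (0.76 ± 0.46; adjusted p = 0.271). The groups overlapped for thr. The other 6 genes had log2 fold changes from -0.64 for cort to 0.46 for fzy and did not pass. In the same contrast 4 of 6 germline markers were higher (median 1.11), 5 of 6 muscle markers were lower (-2.68), 3 of 11 heat shock genes tested and 1 of 10 eggshell genes were lower (medians -1.54 and -2.58), and no late-oocyte mRNA passed. The part of these markers in the png call was not tested. Of the 49 pathway genes, Sse (0.90) and Nipped-B (1.09) were higher and none was lower, where 4.94% of all genes were higher. Each of these calls held in 4 of the 14 fits that left out 1 library, and the count went from 0 (without hsbam 1, or any library of Set2, NC2b or bam RNAi or the RpS19b mutant) to 10 without hsbam 4 and 23 without hsbam 3.

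The mean of the 3 knockdowns was also set against bam RNAi, again across experiments. Of the 8 genes 5 were higher and none lower, where 31.9% of genes passed, 12.7% higher and 19.1% lower, and their median was 1.48 beside -0.08 over all genes. cort was at 6.80 and 9.49 CPM in bam RNAi, below its 29.6 to 53.0 in the 6 knockdown libraries (2.43 ± 0.65; adjusted p = 0.0166). fzr was at 75.7 and 65.6 CPM against 94.9 to 144 (0.78 ± 0.20; adjusted p = 0.0128). pim was at 46.3 and 47.0 CPM against 94.7 to 188 (1.52 ± 0.32; adjusted p = 0.00549). For these 3 genes the groups did not overlap, and the share of all genes without overlap was not counted.

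plu was at 8.89 and 9.18 CPM in bam RNAi against 22.7 to 35.5 in the knockdowns (1.77 ± 0.48; adjusted p = 0.0175). png, at 4.81 and 3.63 CPM against 6.84 to 43.6, also passed (2.38 ± 0.41; adjusted p = 0.00172), with the Set2 RNAi libraries the lowest of the 6. gnu was at 95.7 and 86.5 CPM against 168 to 309, without overlap, and did not pass (1.43 ± 0.59; adjusted p = 0.0876). thr did not either (0.69 ± 0.46; adjusted p = 0.278), being at 91.4 and 114 CPM against 139 to 237. fzy was at 113 and 163 CPM against 112 to 181, with overlap (0.01 ± 0.27; adjusted p = 0.989). Without either bam RNAi library the count fell to 1, png. Of the pathway genes, 15 were higher and 1, the APC/C subunit gene mr (-0.73), was lower. The higher ones included mtrm (5.95), wisp (5.67), smg (4.30), APC7 (4.24), CycB (3.41), Rca1 (2.11), Zwilch (1.81) and mei-S332 (1.15). Leaving out 1 library gave 4 and 7 pathway genes without either bam RNAi library, and 27 and 26 without hsbam 3 or 4, and mr passed in 11 of the 14 fits. The late-oocyte sum was 684 and 206 CPM in bam RNAi. Marker genes also differed in this contrast: all 10 eggshell genes were higher (median log2 fold change 6.39), 5 of 6 germline markers (median -1.54) and 5 of 8 escort, cap and terminal filament markers tested (-1.50) were lower, and of 11 heat shock genes tested 4 were lower and 1 higher. The part of these markers in the changes was not tested.

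The second experiment asked what loss of RpS19b, a germline paralogue of a small-subunit ribosomal protein, changes in ovaries arrested by bam RNAi. RpS19b itself was at 189 and 249 CPM in bam RNAi and at 29.9 and 15.0 in the mutant. None of the 8 genes passed (edgeR; 6.13% of 9595 genes did, 5.52% higher and 0.604% lower), 2 had an unadjusted p under 0.05, and DESeq2 and limma-voom called 0 of the 8. fzy was at 88.1 and 95.2 CPM in the mutant against 113 and 163 (-0.53 ± 0.20; adjusted p = 0.169). pim was at 32.6 and 27.7 CPM against 46.3 and 47.0 (-0.58 ± 0.21; adjusted p = 0.162). Both mutant libraries lay below both controls for 6 of the 8 genes and above for 1 (28.3% of all genes below, 26.6% above), fzy and pim being among the 6.

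thr was at 73.4 and 75.2 CPM in the mutant against 91.4 and 114 (-0.41 ± 0.18; adjusted p = 0.23), and gnu at 73.7 and 35.9 against 95.7 and 86.5 (-0.67 ± 0.35; adjusted p = 0.31). Both were among the 6, as was fzr, at 57.6 and 54.4 CPM against 75.7 and 65.6 (-0.29 ± 0.20; adjusted p = 0.456). cort, at 7.12 and 8.22 CPM against 6.80 and 9.49, plu, at 8.63 and 8.56 against 8.89 and 9.18, and png, at 5.28 and 5.57 against 4.81 and 3.63, had log2 fold changes of -0.03, -0.02 and 0.41 and did not pass; cort overlapped the control, plu was the sixth gene below it and png the gene above it. Without the first mutant library gnu alone passed (-1.35). None of the 49 pathway genes passed. The eggshell sum was 4961 and 1813 CPM in the mutant against 1141 and 1042, and the muscle sum 5798 and 10267 against 2666 and 2638. The germline sum was 1793 and 1960 CPM in the mutant against 2492.5 and 3401. All 6 muscle markers were called higher, 4 of 10 heat shock genes tested were called lower, and no germline marker passed. The part of these markers in the values of the 8 genes was not tested.

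The gradient experiment asked whether S19b RNAi changes how mRNAs are loaded onto ribosomes. RpS19b was at 16.8 and 1.44 CPM in the total libraries of S19b RNAi, against 39.4 and 227 in those of hsbam. Without S19b RNAi it was at 4.90 CPM in whole ovaries and 1.26 to 5.26 in the MSL3, NC2b and Set2 RNAi libraries. S19b RNAi and hsbam flies also differed in their listed transgenes, so knockdown and genotype cannot be told apart here. In total RNA, cort was at 18.5 and 40.6 CPM in S19b RNAi against 20.8 and 2.69 in hsbam, and in polysome RNA at 16.8 and 39.8 against 26.1 and 0. png was at 5.39 and 42.7 CPM against 29.9 and 0.797 in total RNA, and at 1.47 and 73.0 against 46.5 and 0.719 in polysome RNA. For both genes the libraries of each group lay farther from each other than the groups did.

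plu was at 3.08 and 34.0 CPM in S19b RNAi total RNA and 11.8 and 59.6 in polysome RNA, against 25.9 and 1.79 and then 41.7 and 1.08 in hsbam. gnu was at 50.4 and 214 CPM in total and 131 and 132 in polysome RNA of S19b RNAi, against 194 and 15.7 and then 153 and 4.67 in hsbam. Within the libraries of a number, plu was higher in polysome than in total RNA in 3 of the 4, the exception being hsbam 2 with 3 counts in the polysome library. thr and fzy were lower in polysome than in total RNA in all 4, as were 7.52% of all genes, and no gene of the 8 was higher in all 4 (7.95% of all genes). thr went from 65.2 to 36.7 and from 95.6 to 75.3 CPM in S19b RNAi and from 123 to 103 and from 27.8 to 2.52 in hsbam. fzy went from 88.2 to 74.2 and from 121 to 101 CPM in S19b RNAi and from 114 to 107 and from 33.5 to 10.8 in hsbam. With the total and polysome libraries of a genotype and number as a block, a fit chosen after the values were seen, neither passed: thr was at -1.67 ± 0.78 in hsbam (unadjusted p = 0.0325, adjusted p = 0.873) and -0.68 ± 0.70 in S19b RNAi, and fzy at -0.81 ± 0.64 and -0.34 ± 0.61. No gene of the 8 passed in that edgeR fit, which called 8 of all genes in hsbam (484 with an unadjusted p under 0.05), 1 in S19b RNAi (123) and 0 for the ratio (137).

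fzr went from 66.6 to 97.9 and from 106 to 64.6 CPM in S19b RNAi and from 88.0 to 63.8 and from 73.0 to 48.9 in hsbam. pim went from 66.0 to 69.1 and from 101 to 84.6 CPM in S19b RNAi and from 94.5 to 73.1 and from 20.4 to 45.0 in hsbam. Neither moved 1 way in all 4. In each of 5 contrasts (S19b RNAi against hsbam in total and in polysome RNA, polysome against total RNA in each genotype, and the ratio of those between genotypes) 0 of the 8 genes passed, 0% of 9688 genes did, and 0 of the 8 had an unadjusted p under 0.05 by edgeR. DESeq2 and limma-voom called 0 of the 8 as well. Over all genes, 5 to 320 had an unadjusted p under 0.05, and DESeq2 called 46 and 112 and limma-voom 1 and 0 for S19b RNAi against hsbam in total and polysome RNA, with 0 by both in the other 3 contrasts. Without hsbam polysome 1 edgeR called 722 genes for S19b RNAi against hsbam in polysome RNA and 460 for polysome against total RNA in hsbam, with none of the 8 among them. The SE of a log2 fold change ran from 0.58 for fzr to 2.01 for png, and to 2.84 for png in the ratio, so that differences of several fold were not detectable for cort, png and plu. The libraries numbered 2 of hsbam and 1 of S19b RNAi, low in these genes, were also those with high muscle markers, and the part of that in the spread was not tested.

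**Figure D5:**
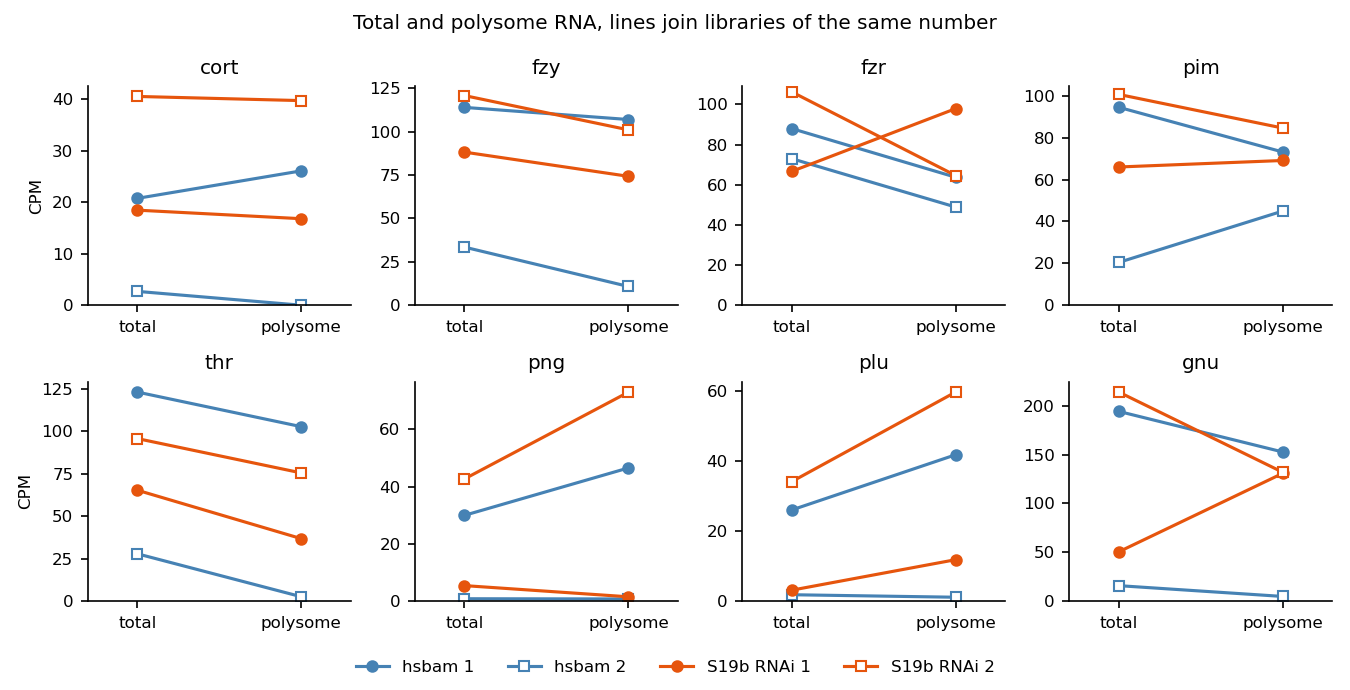
CPM (linear axes from 0) of the 8 genes in total and polysome RNA, lines joining libraries that share genotype and number. The lines of a genotype lie far apart, as for cort in hsbam (20.8 and 26.1 in number 1, 2.69 and 0 in number 2), while thr and fzy slope downward in all 4.

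Across groups, the order of mean levels differed between the genes. Set2 RNAi had the highest mean for cort (51.9 ± 1.50 CPM, SD, n = 2) and fzr (140.4 ± 5.16), and for both its range did not overlap that of NC2b RNAi, next in order. MSL3 RNAi had the highest mean for fzy (159.9 ± 29.8), overlapping bam RNAi, which was next. The whole-ovary library, at 41.4 CPM of fzy, lay below all but hsbam total 2 and hsbam polysome 2, and its pim level of 28.5 CPM was that of hsbam 1 and 2, while its gnu level of 208 CPM lay within the range of the libraries labelled MSL3 RNAi. The 8 genes thus did not share 1 order.

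Over the 23 libraries, the log2 levels of the 8 genes were all positively correlated with each other, as a description with no test, since the libraries share groups, depth and the marker differences above. The closest pairs were fzy and thr (Pearson r = 0.93, n = 23), cort and gnu (0.92) and plu and gnu (0.90), and the least alike were fzr and png (0.31). Without hsbam polysome 2 these values were 0.85, 0.87, 0.88 and 0.21 (n = 22). Among 11663 other genes, those whose log2(CPM + 1) was most like cort were sofe (r = 0.973), retn (0.967) and CG5916 (0.967). gnu was most like gammaTub37C (0.980), BigH1 (0.964) and fz (0.951). plu was most like dah (0.945), CG4238 (0.938) and CG10344 (0.935), and thr was most like Klp3A (0.971), ana3 (0.969) and Ctf4 (0.966). fzy was most like PolD1 (0.957), Chd3 (0.940) and Wee1 (0.934), and pim was most like Map60 (0.945), CG9062 (0.917) and E2f2 (0.904). The neighbours of fzr and png were less close: for fzr they were Art4 (0.865), Grip71 (0.856) and PpD3 (0.853), and for png CD98hc (0.847), dah (0.845) and Cht2 (0.842). dah was thus named for both plu and png.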

How the data were processed

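For 23 libraries the deposited values are raw read counts per gene. The submitters' processing notes name HISAT2 2.1.0, featureCounts 1.6.0.4, edgeR 3.16.5 and the dm6 build. Per the labels' protocols, poly(A)-selected RNA was fragmented for 13 minutes and made into directional libraries. Neither the strand setting nor the annotation release of the counting is given there. A further 8 small tables were not used. Places come from the Ensembl release 115 annotation on dm6 coordinates, and 16647 of 17023 identifiers had a symbol there or in the reference name tables.

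The test was the two-sided quasi-likelihood F test of edgeR 4.0.16 (R 4.3.3) after TMM scaling and filterByExpr (minimum count 10, minimum total 15). P-values were adjusted by Benjamini-Hochberg across every gene in the fit, with a threshold of 0.05. limma 3.58.1 and DESeq2 1.42.0 served as alternatives. The MSL3 and NC2b contrasts shared a fit of 6 libraries, Set2 RNAi used 4, the RpS19b mutation 4 and the gradients 8; contrasts across experiments used 14. Each SE equals the absolute log2 fold change over the square root of its F. CPM use library totals without TMM. All 8 genes passed the filter in every fit. Intervals of log2 fold changes were built from the SE and so include the spread between libraries that edgeR estimated. The floor given for cort covers counting error only. The code recovered known changes in simulated counts. Figures were drawn with matplotlib 3.10.9.

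All 8 genes were tested in every comparison. From each list the rule named up to 4 genes of smallest p among those that passed; the further list genes given, and the order by size, were chosen after their values were seen. The 8 genes and the lists were chosen with earlier results of these data known. Of the listed pathway genes, 49 of 54 were found (not analysed here: lmg, SA, dmt, CanA-14F and mos), and the marker genes vas, nos and wupA were likewise not analysed here; the escort, cap and terminal filament markers summed to 424 to 3002 CPM. Alternatives were other scaling, no filter, DESeq2, limma-voom, a replicate block, other hsbam controls, 1 fit of all 23 libraries, and leaving out each library.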

Additional observations from a re-analysis of the deposited data

Results flagged for a closer look

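Among the 8 genes and the pathway lists, 2 genes passed the test of the difference between the effect of Set2 RNAi and that of MSL3 and NC2b RNAi. This contrast was chosen after the png values under Set2 RNAi had been seen, so for png it restates that observation. For png that difference was -3.36 on the log2 scale (edgeR adjusted p = 0.0339), the Set2 RNAi libraries being at 6.84 and 7.33 CPM. The png call held in 5 of the 14 fits that left out 1 library and was lost in the joint fit of 23 libraries (-3.44; adjusted p = 0.999995). For sra, the calcipressin needed at egg activation, it was -1.59 (adjusted p = 0.0469), and that call was lost with library size alone as the scaling (-1.40; adjusted p = 0.0677) and in 10 of the 14 fits that left out 1 library. Each effect was taken against its own hsbam pair, so the spread between hsbam 3 and 4 enters both values. No group had enough libraries for a test of a single outlying library.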

How the results depend on the processing

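Fold changes were recomputed under alternatives only for chosen pairs of gene and comparison. These held all 8 genes for each knockdown against hsbam, only some of them elsewhere, and none in the gradient contrasts. Of 683 such recomputed values, 523 kept sign and side of the threshold, 121 lost their call, 35 gained one and 4 changed sign. Those counts do not cover the pairs left out. The sign changes were of fzy, at 0.67 with hsbam 3 and 4 as the control, 0.23 with all 4 and -0.172 to 0.0678 when 1 library was left out (the latter without hsbam 2) for NC2b RNAi, and at -0.0297 with hsbam 1 and 2 as the control for Set2 RNAi. Among pathway genes, APC7 went to -0.0485 for NC2b RNAi with hsbam 3 and 4.

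The count of the 8 genes past the threshold was 0 for MSL3 and NC2b RNAi against hsbam 3 and 4, against the 4 hsbam libraries together, and in a joint fit of 23 libraries. The joint fit, whose spread takes in the gradient libraries, also gave 0 for bam RNAi against hsbam, the 3 knockdowns against bam RNAi, and both Set2 contrasts for png. For Set2 RNAi the count was 6 with hsbam 1 and 2 and 1 with all 4 hsbam libraries. For bam RNAi against hsbam it was 0 with library size alone and 0 with limma-voom. For the RpS19b mutation it was 1 with no filter and 3 with the replicate block (fzy, pim and gnu), of which the numbers mark no shared origin in the labels. The same block gave 6 for MSL3 RNAi, 7 for NC2b RNAi and 7 for the 3 knockdowns against bam RNAi. Same-numbered deviations correlated at 0.16 between bam RNAi and its mutant, at -0.07 to 0.12 among hsbam, MSL3 and NC2b RNAi, and at 0.27 and 0.46 between total and polysome RNA of hsbam and of S19b RNAi. No paired analysis was possible for Set2 RNAi because its numbers are not those of hsbam 3 and 4.

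Leaving out 1 library gave 2 to 7 of the 8 for MSL3 RNAi, 0 to 7 for NC2b RNAi, 0 to 7 for Set2 RNAi, 0 to 1 for the RpS19b mutation, 0 to 4 for bam RNAi against hsbam, 1 to 7 for the 3 knockdowns against bam RNAi, 0 to 1 for Set2 against MSL3 and NC2b RNAi and 0 to 2 for the difference of effects; the cause was not tested. Over all genes, DESeq2 called 3342 for NC2b RNAi (edgeR 1897), 1352 for Set2 RNAi (edgeR 0), 1165 for the RpS19b mutation (edgeR 588), 2572 for bam RNAi against hsbam (edgeR 1096), 996 for Set2 against MSL3 and NC2b RNAi (edgeR 74), 641 for the difference of effects (edgeR 72), 233 for MSL3 against NC2b RNAi (edgeR 0), and 46 and 112 for S19b RNAi in total and polysome RNA (edgeR 0). With no filter it was 849 for Set2 RNAi, 1426 for the RpS19b mutation, 548 and 251 for the added Set2 contrasts, 43 and 67 for S19b RNAi, 2 for MSL3 against NC2b RNAi and 1 for the polysome ratio. limma-voom gave 44 for the difference of effects. Against the other hsbam pair, against all 4 and in the joint fit, it was 0, 18 and 0 for MSL3 RNAi (2573 as reported), then 0, 3 and 0 for NC2b RNAi and 3463, 637 and 95 for Set2 RNAi. Blocking total and polysome RNA of a genotype and number gave 8 for polysome against total RNA in hsbam and 1 in S19b RNAi. The block by number gave 2150 for the RpS19b mutation and 313 for Set2 against MSL3 and NC2b RNAi. In fits that left out 1 library, most counts of the 8 genes and of the pathway lists, here and above, stand without the share of all genes. Calls over all genes moved widely in those fits too, in most contrasts. Library size alone moved the median of all genes by 0.17 for Set2 RNAi and 0.19 for the difference of effects. With a pseudocount of 0.5 the 3 most similar genes stayed for 6 of the 8 genes, and 2 of 3 for cort and png. The depth of hsbam polysome 2 limits cort, png and plu there.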
